A study of Arabidopsis thaliana with 4 samples.

Results

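Plants switch on a small group of genes within minutes of being wounded, touched or chilled, and 10 *Arabidopsis thaliana* genes of this kind are described here, among them *STZ* (also called ZAT10), *DIC2*, *CAF1b* and *DREB26*. The genes were chosen by their known rapid response and on their levels in the 4 libraries of this series (read starts on exons, compared between genotypes), so the levels and ratios are a description and were not tested. All 10 lie among the 17099 genes that could be analysed, out of 37899 annotated nuclear genes. Leaves of 3-week-old plants of the Col0 ecotype, grown in long days, gave 1 mRNA-Seq library for each of 4 genotypes. These were the wild type Col-0, *suvr5-1*, the double mutant *ldl1 ldl2* (its *ldl1* allele is *ldl1-2*) and the triple mutant *suvr5 ldl1 ldl2*. SUVR5 is a SET-domain protein of the family of H3K9 methyltransferases, and LDL1 and LDL2 are relatives of the H3K4 demethylase LSD1. The comparisons set the level of these transcripts beside the loss of SUVR5, of LDL1 and LDL2 together, or of all of them. LDL1 and LDL2 were not lost singly, and the labels name no stimulus for these leaves. With 1 library per genotype no value has a replicate check, and the genotype cannot be told apart from the plants, the harvest and the library. All ratios to Col-0 share that 1 library.

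Mechanical injury, touch and cold each raise calcium in the cytosol, and calcium-dependent and MAP kinases then act on transcription factors already present in the cell. The first transcripts to appear encode mostly regulators, such as zinc finger and AP2/ERF transcription factors, calcium-binding proteins, mRNA-decay enzymes and small secreted peptides. They usually fade soon afterwards, while jasmonate made at the wound drives a later and longer set of genes.

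Mapped reads numbered from 10406023 to 15083462 per library, of which 2787319 to 4895163 lay on the exons of analysed genes. Levels are given as RPKM, the reads scaled to the length of the exons and to all reads on those genes, and a gene of 1 kb without a read could still have 3 reads, an RPKM of 0.613 to 1.08 depending on the library. The leaf label was checked on 11 photosynthesis genes, which were all present, with a summed RPKM between 100355 and 112710 in Col-0, *suvr5-1* and the double mutant and of 67211 in the triple mutant. Seed storage genes were near 0 in every library (summed RPKM of 6 genes at most 0.52). The summed RPKM of 3 anther tapetum genes was 6.15 in *suvr5-1* and at most 0.32 elsewhere. Col-0 stood apart in reads on the rRNA gene AT2G01010, with 20568 against 1581 to 1782. *suvr5-1* stood apart in the share of nuclear reads on chromosome 3, with 44.6% against 51.9% to 54.9%. Its share of nuclear reads on the analysed genes was 36.4% against 30.1% to 31.6%. The part of these differences in the values below was not tested. In leaves, more cells that express a gene and more RNA per cell cannot be told apart.

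The 250 bases before the annotated start of each gene were searched on both strands for motifs known from stress promoters and for the octamer TACTAGTA, which the zinc fingers of SUVR5 bind. The promoters of the genes that the results turn on are shown 5′ to 3′ towards the gene, from the TAIR10.1 genome with the RefSeq annotation, with matches in capitals. They belong to *STZ* at chr1:9649324-9649573 (minus strand), AT1G15010 at chr1:5170931-5171180 (plus strand), *DIC2* at chr4:12686209-12686458 (plus strand), AT4G27280 at chr4:13664622-13664871 (minus strand) and AT1G07135 at chr1:2190785-2191034 (minus strand).
STZ: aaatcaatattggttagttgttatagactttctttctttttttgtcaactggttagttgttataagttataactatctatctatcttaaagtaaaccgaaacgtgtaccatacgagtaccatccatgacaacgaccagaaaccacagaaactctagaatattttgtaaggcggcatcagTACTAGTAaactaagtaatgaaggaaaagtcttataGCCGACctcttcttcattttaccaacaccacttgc
AT1G15010: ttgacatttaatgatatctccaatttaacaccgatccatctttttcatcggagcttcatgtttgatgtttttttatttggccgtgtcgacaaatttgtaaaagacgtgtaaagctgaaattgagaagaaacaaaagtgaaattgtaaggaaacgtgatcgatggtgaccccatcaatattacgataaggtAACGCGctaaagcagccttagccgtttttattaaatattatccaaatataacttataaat
DIC2: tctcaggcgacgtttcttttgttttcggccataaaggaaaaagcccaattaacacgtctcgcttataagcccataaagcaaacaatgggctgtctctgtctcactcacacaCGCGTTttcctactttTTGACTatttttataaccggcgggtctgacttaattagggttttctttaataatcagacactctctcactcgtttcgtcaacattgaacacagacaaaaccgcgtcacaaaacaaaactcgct
AT4G27280: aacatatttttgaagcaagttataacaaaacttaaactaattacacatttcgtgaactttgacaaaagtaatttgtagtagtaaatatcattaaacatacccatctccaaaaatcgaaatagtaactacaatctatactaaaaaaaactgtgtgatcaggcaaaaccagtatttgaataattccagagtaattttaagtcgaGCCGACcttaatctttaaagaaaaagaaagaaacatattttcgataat
AT1G07135: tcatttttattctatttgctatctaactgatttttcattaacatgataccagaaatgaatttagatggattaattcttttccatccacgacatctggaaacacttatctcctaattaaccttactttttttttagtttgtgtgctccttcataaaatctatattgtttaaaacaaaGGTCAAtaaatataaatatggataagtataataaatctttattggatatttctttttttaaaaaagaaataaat
*STZ* carried TACTAGTA from 71 to 64 bases before its start, and 35 to 30 bases before it the core GCCGAC of the element bound by DREB and CBF factors. AT1G15010 and *DIC2* each carried the rapid stress response element CGCGTT, on the minus strand in AT1G15010. AT4G27280 had GCCGAC from 48 to 43 bases before its start, and AT1G07135 had the W-box TTGACC, bound by WRKY factors, on the minus strand. No matches overlapped one another.

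Over all 27443 promoters of the same length, the octamer was found in 0.751% and in 1 of the 10 genes, and CGCGTT in 2.59% and in 2 of the 10. GCCGAC or ACCGAC was found in 7.09% of promoters and in 2 of the 10, *STZ* and AT4G27280. A W-box, TTGACC or TTGACT, was found in 28.4% and in 4 of the 10, *DIC2*, AT4G29780, AT1G07135 and AT1G19020. The G-box CACGTG was in 6.49% of promoters and in none of the 10. *CAF1b*, AT3G10930 and *DREB26* held none of these letters within 250 bases. Within 1 kb the count for CGCGTT was 4 of the 10 against 8.66% of all promoters, and for a W-box 10 of the 10 against 67.3%. For GCCGAC or ACCGAC it was 2 of the 10 against 22.3%, for the octamer 1 of the 10 against 2.73% and for the G-box 0 of the 10 against 14.8%.

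Together the 10 genes took 0.018% of the reads on genes in Col-0, 0.046% in *suvr5-1*, 0.083% in the double mutant and 0.076% in the triple mutant, from 571, 2248, 2310 and 2467 reads. Their median RPKM was 15.3, 41.3, 68.0 and 67.4 in the same order, while the median over all genes with a read stayed between 6.93 and 7.85. Col-0 was the lowest of the 4 libraries for 8 of the 10 genes, a pattern shown by 26.2% of the 9719 genes with at least 20 reads over the libraries. The exceptions were AT3G10930 and *DREB26*, lowest in the double mutant. The highest library was the triple mutant for 6 genes, the double mutant for 3 (AT1G15010, *DIC2* and *CAF1b*) and *suvr5-1* for 1 (*DREB26*).

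**Figure D1:**
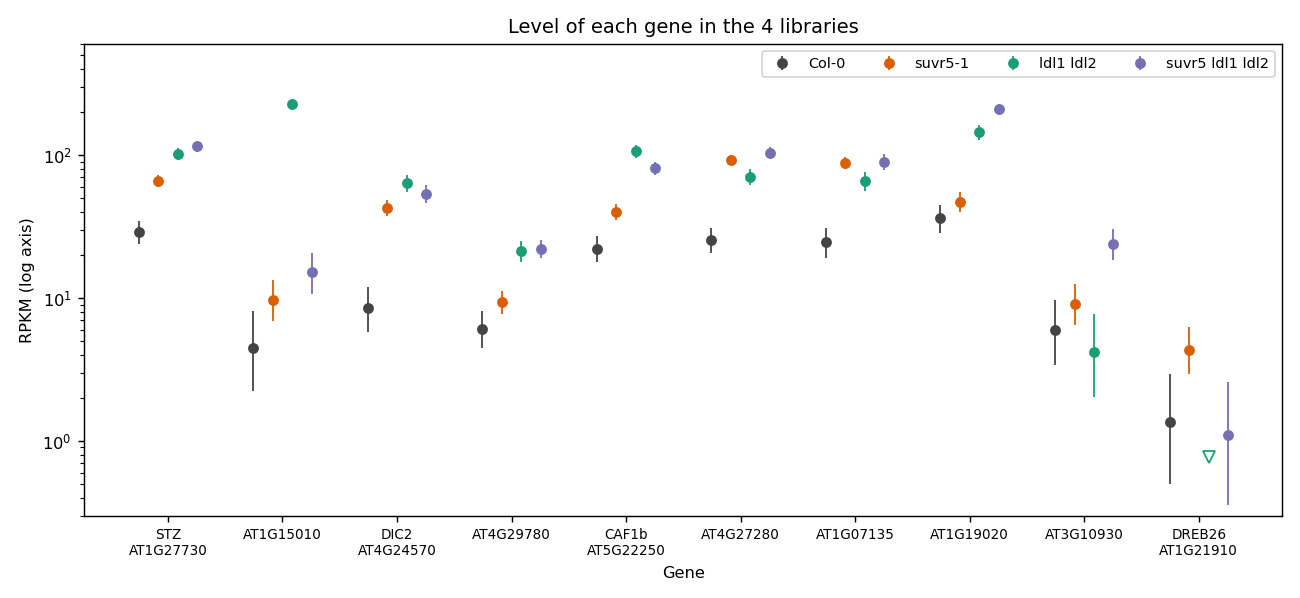
RPKM of the 10 genes on a log axis in Col-0, *suvr5-1*, the double mutant and the triple mutant, 1 library each. Bars are 95% intervals for counting error only and the open triangle marks the RPKM of 3 reads where *DREB26* had 0 reads; Col-0 is the lowest point for 8 genes, and AT1G15010 reaches 227 in the double mutant alone.

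Among the transcription factors, *STZ* (AT1G27730) encodes a C2H2 zinc finger repressor induced by salt, cold, wounding and strong light. It is a single exon of 1303 bases at chr1:9648021-9649323 on the minus strand and encodes 227 amino acids. The gene had 119 reads in Col-0, 420 in *suvr5-1*, 370 in the double mutant and 485 in the triple mutant, which is an RPKM of 29.0, 65.8, 102 and 115. The levels thus stood in the order Col-0, *suvr5-1*, the double mutant, the triple mutant, and the counting intervals separated all neighbours in it but the last pair, whose ratio was 1.13 (95% interval 0.986 to 1.30). Relative to Col-0 the level was 2.27-fold higher in *suvr5-1* (1.85 to 2.81), 3.51-fold in the double mutant (2.85 to 4.36) and 3.98-fold in the triple mutant (3.25 to 4.90). These and all later intervals are exact 95% intervals of the reads of the libraries compared, and cover counting error only.

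*DREB26* (AT1G21910, chr1:7696427-7697831, plus strand) encodes an AP2/ERF factor of the A-5 group of the DREB subfamily. It was the scarcest of the 10, with 6 reads in Col-0, 30 in *suvr5-1*, 0 in the double mutant and 5 in the triple mutant, or an RPKM of 1.36, 4.36, 0 and 1.10. *suvr5-1* was the highest library, 3.22-fold above Col-0 (1.32 to 9.45). The absence of reads in the double mutant allows up to 3 reads, an RPKM of 0.766. Its 30 reads in *suvr5-1* began at 12 distinct positions. The ratio of the triple mutant to Col-0 was 0.813 (0.196 to 3.20), which at this depth shows no direction.

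Of the genes acting on RNA, *CAF1b* (AT5G22250, chr5:7365477-7366799, minus strand) encodes a CCR4-associated deadenylase that shortens poly(A) tails. Its reads numbered 92, 259, 392 and 347 in Col-0, *suvr5-1*, the double mutant and the triple mutant, or an RPKM of 22.1, 40.0, 106 and 81.2. Every step of this order was beyond counting error, with the double mutant on top. Against Col-0 the ratios were 1.81 (1.42 to 2.32) in *suvr5-1*, 4.81 (3.83 to 6.11) in the double mutant and 3.68 (2.92 to 4.68) in the triple mutant. The triple mutant was 0.764 times the double mutant (0.659 to 0.885).

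AT4G29780 (chr4:14579563-14582057, plus strand), annotated in RefSeq as a nuclease, is the longest of the 10 genes, with 2495 exon bases. Its reads numbered 48, 114, 148 and 178 in the same order of libraries, or an RPKM of 6.11, 9.33, 21.3 and 22.1. Col-0 and *suvr5-1* were low and both libraries with *ldl1* and *ldl2* mutations were high, and counting error did not separate these (ratio 1.04, 0.830 to 1.30). *suvr5-1* was 1.53-fold above Col-0 (1.08 to 2.19), and the double mutant was 2.28-fold above *suvr5-1* (1.77 to 2.94). AT4G29780 and *CAF1b* were one of the closest pairs among the 10, their 3 log2 ratios to Col-0 differing by a root mean square of 0.31.

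AT1G15010 (chr1:5171181-5171956, plus strand), which RefSeq annotates as a mediator subunit of RNA polymerase II transcription, gave the largest ratio to Col-0 of the 10. It had 11 reads in Col-0, 37 in *suvr5-1*, 492 in the double mutant and 38 in the triple mutant, an RPKM of 4.50, 9.74, 227 and 15.2. The double mutant alone was high, and the other 3 libraries lay far below it. In the double mutant the level was 50.5-fold that of Col-0 (28.0 to 102) and 23.4-fold that of *suvr5-1* (16.7 to 33.6), and the triple mutant had 0.067 times the level of the double mutant (0.047 to 0.093). *suvr5-1* was 2.16-fold (1.08 to 4.70) and the triple mutant 3.37-fold (1.69 to 7.31) above Col-0. The 492 reads began at 139 distinct positions. With the gene cut into 3 equal parts, 250 of these reads fell in the 5′ part, 242 in the middle and 0 in the 3′ part. The few reads of the other libraries were placed likewise, with 0, 0 and 1 in the 3′ part in Col-0, *suvr5-1* and the triple mutant.

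Calcium signalling is represented by AT4G27280 (chr4:13663415-13664621, minus strand), annotated as a calcium-binding EF-hand protein. It gave 97 reads in Col-0, 548 in *suvr5-1*, 237 in the double mutant and 404 in the triple mutant, an RPKM of 25.5, 92.7, 70.4 and 104. Here *suvr5-1* stood above the double mutant, by 1.32-fold (1.13 to 1.54), and counting error did not separate the triple mutant from it (1.12, 0.980 to 1.27). The ratios to Col-0 were 3.63 (2.92 to 4.56) in *suvr5-1*, 2.76 (2.17 to 3.53) in the double mutant and 4.06 (3.25 to 5.12) in the triple mutant.

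AT1G07135 (chr1:2189877-2190784, minus strand) is annotated as a glycine-rich protein of 155 amino acids. Its reads numbered 70, 391, 166 and 263 in Col-0, *suvr5-1*, the double mutant and the triple mutant, an RPKM of 24.5, 88.0, 65.6 and 89.7. The order was that of AT4G27280, and the triple mutant was again not separated from *suvr5-1* (1.02, 0.869 to 1.20). The ratios to Col-0 were 3.59 (2.78 to 4.70), 2.68 (2.02 to 3.60) and 3.67 (2.81 to 4.84). AT4G27280 and AT1G07135 had the closest profiles of any pair of the 10, with a root mean square difference of 0.091 over their 3 log2 ratios to Col-0. They lie on different chromosomes.

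*DIC2* (AT4G24570, chr4:12686459-12687650, plus strand) encodes a carrier that exchanges dicarboxylates such as malate across the inner mitochondrial membrane. It had 32 reads in Col-0, 249 in *suvr5-1*, 211 in the double mutant and 206 in the triple mutant, an RPKM of 8.52, 42.7, 63.5 and 53.5. Col-0 was far below all 3 mutants, which lay within 1.49-fold of each other. The ratios to Col-0 were 5.01 (3.46 to 7.48) in *suvr5-1*, 7.45 (5.12 to 11.2) in the double mutant and 6.28 (4.31 to 9.42) in the triple mutant. *DIC2* was the 1 gene of the 10 over 4-fold higher than Col-0 in every mutant, which held for 1.24% of the 9719 genes.

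Small proteins close the list. AT1G19020 (chr1:6568002-6568705, plus strand) encodes 86 amino acids and is annotated in RefSeq as a phosphatidyltransferase. It had the highest Col-0 level of the 10, with reads of 80, 162, 284 and 475 in Col-0, *suvr5-1*, the double mutant and the triple mutant and an RPKM of 36.1, 47.0, 145 and 209. *suvr5-1* was within counting error of Col-0 (1.30, 0.991 to 1.73), the double mutant was 4.01-fold higher (3.12 to 5.21) and the triple mutant 5.79-fold (4.56 to 7.43). With each position counted once, the log2 ratio to Col-0 fell from 2.00 to 1.57 in the double mutant. In the triple mutant it fell from 2.53 to 1.58, so both were then under 4-fold. By reads the triple mutant also exceeded the double mutant, by 1.44-fold (1.24 to 1.68). With each position counted once, the log2 ratio of the triple to the double mutant went from 0.53 to 0.0096. Whether reads at a repeated position were copies or separate molecules was not tested. AT1G19020 shares 32 exon bases with its neighbour AT1G19025, and no library had a read starting in them.

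AT3G10930 (chr3:3420081-3420932, minus strand) encodes IDL7, a member of the IDA-like family of small secreted peptides. It had 16 reads in Col-0, 38 in *suvr5-1*, 10 in the double mutant and 66 in the triple mutant, an RPKM of 5.96, 9.11, 4.21 and 24.0. The triple mutant was above each of the others, and those 3 could not be ordered beyond counting error except that the double mutant was 0.462 times *suvr5-1* (0.205 to 0.945). The ratio of the triple mutant was 4.02 to Col-0 (2.30 to 7.44), 2.63 to *suvr5-1* (1.74 to 4.03) and 5.70 to the double mutant (2.91 to 12.4).

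Set side by side, the 3 comparisons with Col-0 differed in how many of the genes passed 4-fold. In *suvr5-1* 1 of 10 genes did, *DIC2*, beside 4.07% of the 9764 genes with at least 10 reads in the libraries compared, and AT4G27280 at 3.63-fold lay just below the limit. In the double mutant 4 of 9 did, AT1G15010, *DIC2*, *CAF1b* and AT1G19020, beside 5.48% of 9467 genes. AT1G19020 at 4.01-fold lay just above the limit, and *STZ* at 3.51-fold was the next below. In the triple mutant 4 of 10 did, *DIC2*, AT1G19020, AT4G27280 and AT3G10930, beside 6.5% of 9622 genes, and *STZ* at 3.98-fold and AT3G10930 at 4.02-fold lay on either side of the limit. None of the 10 was over 4-fold lower than Col-0 with at least 10 reads, beside 2.3%, 2.83% and 2.34% of genes, and none was over 2-fold lower, beside 8.64%, 11.5% and 9.01%. Counts over 2-fold were 6, 8 and 9, beside 12.5%, 14.3% and 16.7% of genes, and 5 genes were over 2-fold higher in all 3 mutants (*STZ*, AT1G15010, *DIC2*, AT4G27280 and AT1G07135) beside 4.43%. The median log2 ratio to Col-0 over the genes with at least 10 reads was 1.15 in *suvr5-1*, 1.81 in the double mutant and 1.94 in the triple mutant, beside 0.02, -0.05 and 0.11 over all genes. The same comparisons chose the genes, so nothing is read from these shares. The number of genes past 4-fold depends on the scaling of the libraries and the counting. With all nuclear reads as library size it was 3 in *suvr5-1* and 3 in the triple mutant. With each read position counted once it was 3 in the double mutant and 1 in the triple mutant.

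**Figure D2:**
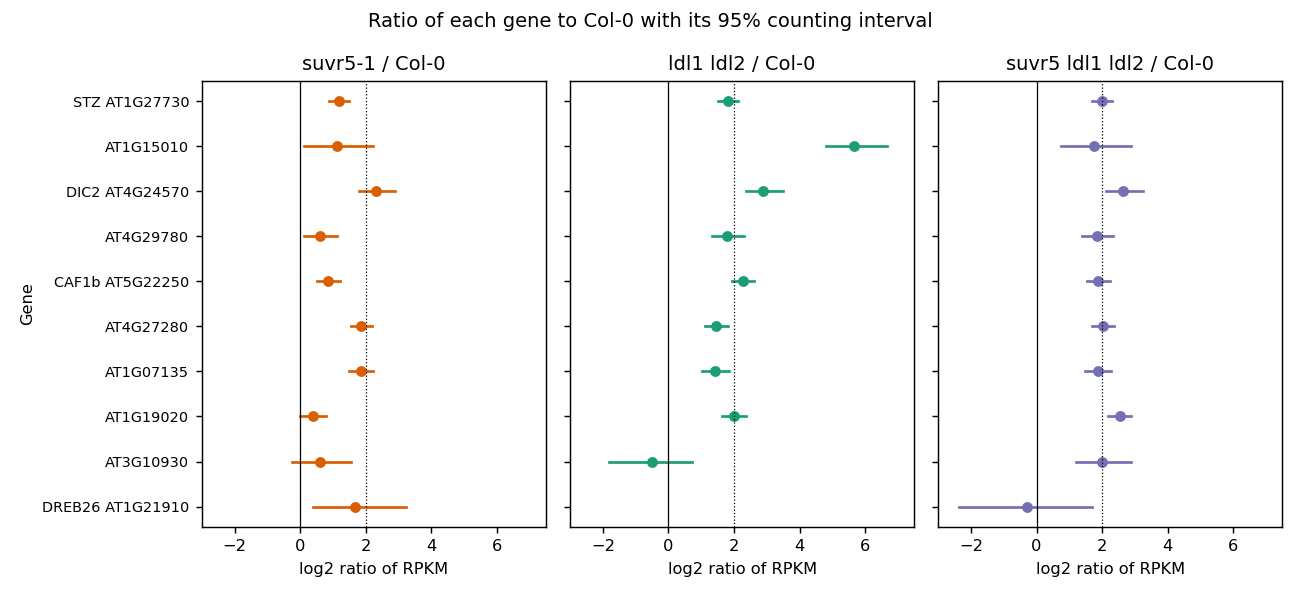
Log2 ratio of RPKM to Col-0 of each gene, with its 95% counting interval, in *suvr5-1*, the double mutant and the triple mutant. The dotted line marks 4-fold, *DREB26* is not drawn in the double mutant where it had 0 reads, and *DIC2* is the 1 gene to the right of the dotted line in all 3 panels.

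The mutants were also set against each other. From *suvr5-1* to the triple mutant, 1 of 10 genes was over 4-fold higher (AT1G19020, 4.45-fold, 3.71 to 5.35) beside 4.59% of 9901 genes, and 4 were over 2-fold higher, AT4G29780, *CAF1b* and AT3G10930 being the others, beside 14.6%. With each position counted once, the log2 ratio of AT1G19020 in this comparison went from 2.15 to 1.10, under 4-fold. None of the 10 genes was over 4-fold lower, beside 2.51% of genes, and 1 was over 2-fold lower, beside 9.77%, which was *DREB26* at 0.253 times (0.077 to 0.658). From the double mutant to the triple mutant, 1 of 9 genes was over 4-fold higher (AT3G10930) beside 5.32% of 9677 genes, and 1 was over 4-fold lower (AT1G15010) beside 3.52%. In that comparison the counting interval held 1 for *STZ*, *DIC2* and AT4G29780, and for *DREB26* with its 5 and 0 reads. Between the single and the double mutant, the double mutant was over 4-fold higher for AT1G15010 alone beside 3.67% of 9808 genes, and over 4-fold lower for *DREB26* alone beside 3.55%. Over 2-fold, 4 genes were higher there (AT1G15010, AT4G29780, *CAF1b* and AT1G19020), beside 11.6% of genes, and AT3G10930 and *DREB26* were lower, beside 12.5%. The median log2 ratios of these 3 comparisons were 0.72, 0.18 and 0.60 over the genes with at least 10 reads, and the second was -0.08 with each read position counted once.

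All 10 genes are annotated with a single exon, against 18.3% of the 13387 protein-coding genes analysed and 12.8% of those with at least 20 reads. The exons measured 704 to 2495 bases, with a median of 1199.5 against 1589 for protein-coding genes. The other single-exon genes had a median log2 ratio to Col-0 of 0.13 in *suvr5-1*, 0.03 in the double mutant and 0.17 in the triple mutant, and 7.93%, 9.30% and 10.2% of them were over 4-fold higher. Of the reads on the 10 genes, those past the midpoint towards the 3′ end made up 68.0% in Col-0, 69.3% in *suvr5-1*, 56.9% in the double mutant and 61.5% in the triple mutant. These pooled shares depend on which genes gave the reads and do not compare coverage between libraries. AT1G15010 gave 492 of the 2310 reads in the double mutant, with 18.9% past its midpoint. AT1G19020 gave 475 of the 2467 reads in the triple mutant, with 3.16%. Single genes were read in different places, AT4G27280 with 0 reads in the first of 3 equal parts in every library and AT1G19020 with 3.16% to 16.2% of its reads past its midpoint.

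The protein-coding genes on either side of the 10 were not listed for a stress response, and 13 of these 20 had enough reads. None was over 4-fold higher or lower than Col-0 in any mutant, and their median log2 ratios were -0.17, -0.20 and 0.04. Over all genes 4.07%, 5.48% and 6.5% were over 4-fold higher and 2.3%, 2.83% and 2.34% over 4-fold lower. With 13 genes, a count of 0 cannot be told apart from these shares. The 1 neighbour over 2-fold higher, in *suvr5-1* and the triple mutant, stood beside 12.5% and 16.7% of all genes. It was AT4G27270, annotated as a quinone reductase and 43 bp from AT4G27280. It had 20 reads in Col-0, 115 in *suvr5-1*, 12 in the double mutant and 79 in the triple mutant. Like AT4G27280 it was high in *suvr5-1* and the triple mutant, and it differed in being lowest in the double mutant. Over 2-fold lower were AT1G21920 beside *DREB26* in the double mutant, with 419 reads in Col-0 and 145, and *TAF4B* beside *STZ* in the triple mutant, with 7 and 3. Of all genes, 11.5% in the double mutant and 9.01% in the triple mutant were over 2-fold lower.

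**Figure D3:**
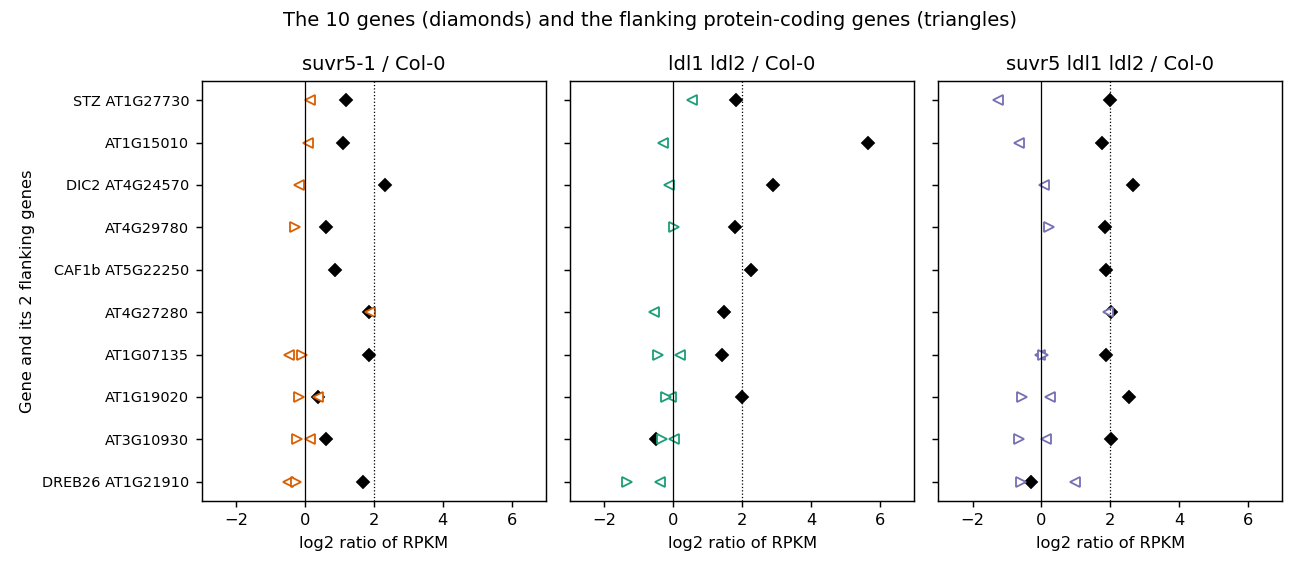
Log2 ratio of RPKM to Col-0 of the 10 genes (diamonds) and of the protein-coding genes to the left and right of each on the chromosome (open triangles pointing that way), for genes with at least 10 reads in the libraries compared. No triangle passes the dotted line at 4-fold, and AT4G27270 beside AT4G27280 is the 1 neighbour over 2-fold higher.

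A wider view comes from 95 other genes known to respond early to wounding, touch, cold or elicitors, of which 47 could be analysed. This list was drawn up with earlier results of these data known. Of those with at least 10 reads, 2 of 39 were over 4-fold higher in *suvr5-1*, 20 of 41 in the double mutant and 16 of 41 in the triple mutant, beside 4.07%, 5.48% and 6.5% of all genes. Over 4-fold lower were 1, 2 and 3 of them, beside 2.3%, 2.83% and 2.34%. Their median log2 ratios were 0.61, 1.94 and 1.45, beside 1.15, 1.81 and 1.94 for the 10 genes. The 10 genes thus had the higher median in *suvr5-1* and in the triple mutant, and the wider list had it in the double mutant. In the double mutant the median of the 10 covers the 9 with at least 10 reads. All of this is a description.

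Each count by group stands beside the same shares of all genes over 4-fold higher, 4.07% in *suvr5-1*, 5.48% in the double mutant and 6.5% in the triple mutant. For genes over 4-fold lower these are 2.3%, 2.83% and 2.34%. The early jasmonate genes were high in the double mutant, where 7 of 7 passed 4-fold, against 2 of 6 in the triple mutant and 0 of 6 in *suvr5-1*. The lowest ratio of that group in the double mutant belonged to *MYC2*, the main transcription factor of jasmonate signalling, with 338 reads in Col-0 and 1669 in the double mutant (5.58-fold, 4.96 to 6.29). The highest belonged to *JAZ8*, a jasmonate repressor, with 1 and 36 reads (40.7-fold, 6.85 to 1651).

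The relatives of *STZ* and *DREB26* were less uniform. Both zinc finger genes analysed, *ZAT6* and *ZF2* (AT3G19580), stayed under 4-fold in every mutant, with ratios of 1.23 (1.01 to 1.49) and 0.412 (0.264 to 0.628) in the double mutant, where *STZ* was at 3.51. Of the DREB and ERF factors 0 of 9, 6 of 10 and 2 of 10 were over 4-fold higher in *suvr5-1*, the double mutant and the triple mutant, and 0, 1 and 3 were over 4-fold lower. The 3 lower in the triple mutant were *CBF1*, *CBF2* and *DREB1A*, all regulators of the cold response. *DDF1*, a DREB1-type factor, had 0 reads in Col-0, 0 in *suvr5-1*, 116 in the double mutant and 2 in the triple mutant. *DREB1A* had 30, 92, 14 and 4 reads in the same order, which like *DREB26* was highest in *suvr5-1*.

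Among early WRKY and MYB factors 1 of 5, 3 of 6 and 3 of 7 were over 4-fold higher, from *WRKY11* at 1.40-fold (1.16 to 1.70) to *MYB15* at 22.0-fold (5.70 to 188, from 2 reads in Col-0 and 39) in the double mutant. Of the touch and calcium-binding genes, the kind to which AT4G27280 belongs, 0, 1 and 2 of 3 passed 4-fold. AT3G01830, another EF-hand gene, had 6 reads in Col-0 and 146 in the double mutant (27.5-fold, 12.3 to 76.1), and *CML42*, a calmodulin-like gene, 54 and 131 (2.74-fold, 1.98 to 3.84). The ubiquitin ligases and signalling genes gave 1, 2 and 6 of 11, from *ATL2*, a RING ubiquitin ligase, at 0.779 (0.619 to 0.978) to *GRX480*, a glutaredoxin, at 45.2 (25.6 to 88.1) in the double mutant.

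Close relatives of AT3G10930 and *DIC2* completed the lists. AT5G05300, which encodes the related peptide IDL6, had 7 reads in Col-0, 29 in *suvr5-1*, 30 in the double mutant and 62 in the triple mutant. As with AT3G10930 the triple mutant was the highest library. *DIC3*, a second dicarboxylate carrier, had 29, 21, 1 and 60 reads in that order, a ratio of 0.039 in the double mutant (9.5e-04 to 0.235) where *DIC2* was at 7.45.

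**Figure D4:**
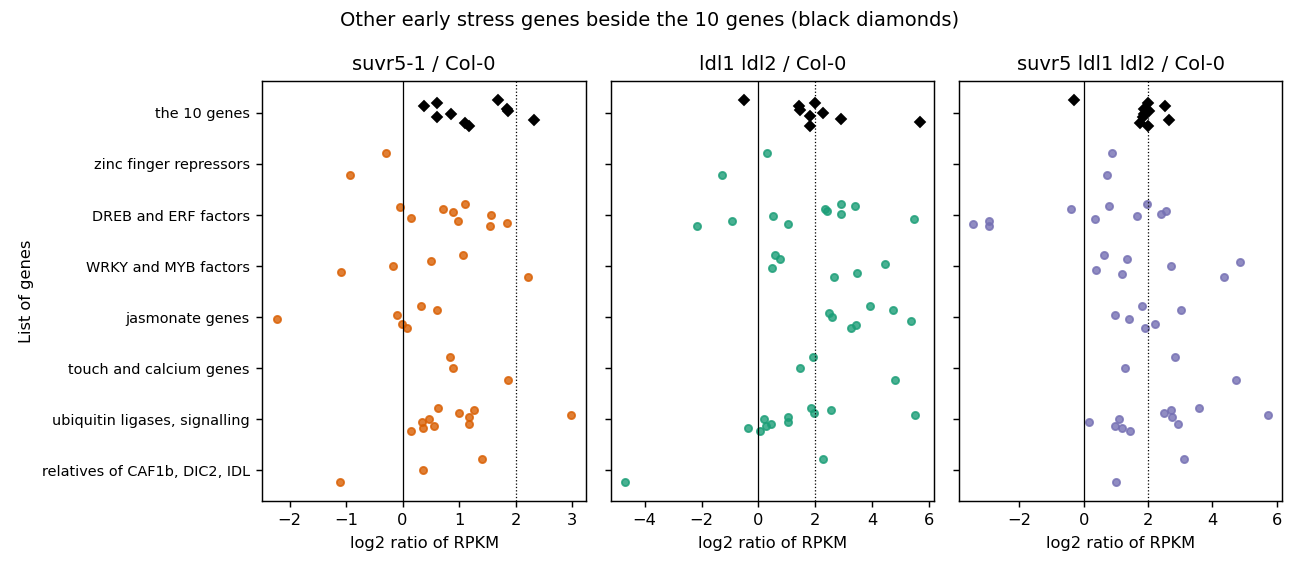
Log2 ratio of RPKM to Col-0 of the 10 genes (black diamonds) and of the other early stress genes by list, for genes with at least 10 reads in the libraries compared, with a library at 0 reads set at 3. The x axes differ between panels, the dotted line marks 4-fold, and all 7 jasmonate genes lie to the right of it in the double mutant.

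Genes with a profile like that of the 10 were ranked by the root mean square distance of their 3 log2 ratios to Col-0 from the median profile of the 10 (1.12, 1.80 and 1.92, with 0.5 reads added), over 7177 genes with at least 50 reads in a library. *STZ* was nearest to that median of all genes, at 0.048, and AT4G29780 and *CAF1b* ranked 31 and 36. The median is that of the 10 genes themselves, which by itself places some of them near it, so the ranks are a description of how they spread. AT4G27280, AT1G07135 and AT1G19020 ranked 91, 92 and 158, and *DIC2*, AT3G10930 and AT1G15010 ranked 732, 1780 and 6034. The nearest gene outside the list was AT5G19250, annotated as a GPI-anchored glycoprotein, with 374, 1313, 1056 and 1356 reads in Col-0, *suvr5-1*, the double mutant and the triple mutant. The others of the nearest 5 were *FAO3* (AT3G23410), a fatty alcohol oxidase, with 55, 181, 152 and 224 reads, the pseudogene AT4G04410, *SYP32* and AT4G23470, annotated as a PLAC8 family protein. None of these 5 was in the lists of stress genes above.

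The profile of AT1G15010 was taken as a reference after its values were seen. The gene nearest to it was *RAS1* (AT1G09950), with 2 reads in Col-0, 6 in *suvr5-1*, 76 in the double mutant and 9 in the triple mutant, at a distance of 0.35. The others of the nearest 5 were, in order, AT1G19380, the snRNA gene *U5.5*, *LOX3* and AT4G32800, a DREB factor. Their distances were 0.87, 0.90, 0.95 and 1.04. *LOX3*, a lipoxygenase of jasmonate synthesis, had 59, 140, 1371 and 491 reads. A level over 4-fold higher in the double mutant than in each other library was found for 62 of 9719 genes (0.638%). These held AT1G15010 of the 10, and *DDF1*, *RRTF1*, AT1G22810, *WRKY18*, *JAZ8* and *OPR3* of the 47 other early stress genes.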

How the data were processed

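RNA of leaves was extracted with Trizol, poly(A)-selected and sequenced (Illumina), 1 library per genotype. The deposited files hold no count or RPKM: the authors deposited 1 line per mapped read with its chromosome, strand and leftmost position, a measure of another kind (other). The submitters' processing notes name Bowtie; its version and the assembly used to map these reads are not given in the sources used here. Reads lay past the ends of 4 TAIR10.1 chromosomes, so another assembly was used, and no position was converted. In 478 windows of 250 kb the displacement of reads from TAIR10.1 exons was measured, and 205 windows (51.1 Mb) within 30 bp, neighbours included, were kept. There the displacement was -26 to 17 bp, and -18 to 6 bp at the 10 genes.

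Reads starting in merged exons were counted on either strand and scaled to RPKM by reads on genes (3149103 in Col-0, 4895163 in *suvr5-1*, 2787319 in the double mutant, 3228698 in the triple mutant). Ratios carry exact Clopper-Pearson 95% intervals, which cover counting error only, since reads without molecular identifiers are not independent molecules. Calls need over 4-fold and at least 10 reads. No test was made between genotypes. The steps for displacement, counting and intervals were run on simulated reads, with the simulated shift removed before counting. The displacement left in the real reads was not part of that simulated count, so its effect was not tested there. Python 3.11.15, numpy 2.4.6, scipy 1.17.1, pandas 2.3.3 and matplotlib 3.10.9 were used.

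The 10 genes and all lists were chosen with earlier results of these data known. Named besides them are, per list, the genes with the highest and lowest ratio to Col-0 in the double mutant among those with at least 20 reads, and the 5 genes nearest to the median profile. *RAS1*, AT1G19380, *U5.5*, *LOX3*, AT4G32800, *CBF1*, *CBF2*, *TAF4B*, AT1G21920, AT4G27270, AT2G01010 and the genes high in the double mutant alone were named after their values were seen. Motif positions count back from 1 at the base before the annotated start.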

Additional observations from a re-analysis of the deposited data

How the results depend on the processing

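No paired analysis was possible because there is 1 library per genotype, and for the same reason no library could be left out. The number of the 10 genes over 4-fold higher moved under these settings. With all nuclear reads as library size it was 3 in *suvr5-1* against Col-0 (1 as reported) and 0 in the triple mutant against *suvr5-1* (1 as reported). In the triple mutant against Col-0 (4 as reported) it was 2 with median-of-ratios size factors, 2 with the 10 most abundant genes left out of the totals and 1 with each position counted once. Counting each position once also gave 0 in the triple mutant against *suvr5-1*. Smaller moves, from 4 to 3, came in the double mutant against Col-0 with each position counted once. The triple mutant against Col-0 likewise went to 3 with all nuclear reads as library size. Over 2-fold it was 6, 8 and 9 against Col-0 in *suvr5-1*, the double mutant and the triple mutant, 4 in the triple mutant against *suvr5-1* and 4 in the double mutant against *suvr5-1*. Whole genes with introns and exons widened by 30 bp moved no such count by over 1.5 times. The first setting could act only through the library totals, because all 10 genes have a single exon. Its values are still among the 395 that follow. Of the 395 single-gene and median values under these settings, 370 moved by less than the counting error and 25 by more. The sign changed in 12 of them, all with small log2 ratios between the triple mutant and another mutant.

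Nuclear reads as library size shifted the median log2 ratio of all genes by 0.26 in *suvr5-1* against Col-0 and by -0.27 in the triple mutant against *suvr5-1*. In the latter AT4G27280 and AT1G07135, whose intervals hold 1, came to -0.11 and -0.25 on the log2 scale. With each position counted once, the median of the triple against the double mutant went from 0.18 to -0.08 and *STZ* from 0.18 to -0.24. Over all genes the share of higher among 4-fold calls in *suvr5-1* went from 63.8% to 75.2% with nuclear reads, and in the double mutant from 65.9% to 45.9% with each position counted once. There AT1G15010 was still 4.58 above Col-0 on the log2 scale. The study's call, over 4-fold with an adjusted P under 0.01 by Fisher's exact test on reads, took the same number of the 10 genes in each comparison. Depth limits *DREB26*, AT3G10930 and the Col-0 value of AT1G15010 most.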
